A study of Mus musculus with 8 samples.

Results

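The genes that set CD4 and CD8 T cells apart were followed in regulatory T (Treg) cells that had been sorted as CD4+. There were 10 of them among the 49212 genes counted in each library, and they were taken by name. They are the coreceptors Cd4, Cd8a and Cd8b1, the lineage regulators Zbtb7b, Runx3 and Runx1, the T-box factors Tbx21 and Eomes, and the surface molecules Cd3e and Cd5 that both lineages carry. RNA-seq was performed on effector Treg (eTreg) cells with the gate CD45+CD44+YFP+CD4+CD3+, where YFP reports Foxp3, in 8 libraries with 2 per group. The cells came from the spleen or the tumor (tumor-infiltrating, TIL) of C57BL/6 mice bearing B16-OVA melanoma and immunized with NP-OVA, first in CFA and later in IFA. WT mice were Foxp3-YFP-Cre, and KO mice were Prdm1 fl/fl Foxp3-YFP-Cre, so both genotypes carried the Foxp3-driven Cre and only KO mice the floxed Prdm1, which encodes Blimp1. Loss of Prdm1 is therefore limited to cells that have expressed Foxp3. KO and WT below are the libraries so labelled. Age and sex of the mice, and whether replicates came from separate mice, are not stated in the labels, so the spread between replicates may be technical and the p-values measure only that spread.

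CD4 is a coreceptor for MHC class II and marks helper and regulatory T cells, whereas CD8, a dimer of the Cd8a and Cd8b1 products, binds MHC class I and marks cytotoxic T cells. In the thymus ThPOK, the product of Zbtb7b, sustains CD4 identity and restrains the CD8 program, and Runx3 silences Cd4 and drives CD8 and cytotoxic genes. Runx1 represses Cd4 in immature thymocytes and is also a partner of Foxp3. T-bet (Tbx21) and Eomes direct type 1 and cytotoxic programs, and Eomes is typical of activated CD8 T cells and NK cells. CD3ε belongs to the T cell receptor complex, and CD5 tempers signals from that receptor.

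The libraries held 27834676 to 43903859 counts on genes. Prdm1 was at 90.7 and 75.1 CPM in KO TIL against 108 and 192 CPM in WT TIL, and at 40.6 and 53.4 CPM in KO spleen within the WT splenic range of 21.0 to 54.0 CPM. These counts sum all exons of Prdm1, so they do not check the deleted part. Foxp3 was detected in every library, at 43.0 to 69.6 CPM in spleen, 25.5 and 60.4 CPM in WT TIL and 10.2 and 2.99 CPM in KO TIL. A pair of libraries stood apart before any comparison. In KO TIL replicate 2 Cd8a exceeded Cd4 by 20.3 to 1 per kb of exon, and in KO TIL replicate 1 the summed level of 10 macrophage markers was 16409 CPM, against 315 to 3448 CPM in the other libraries. The log2 fold changes of the 10 genes between KO and WT TIL are given below with and without each of them.

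Promoters of 8 of the 10 genes were matched by symbol in the RefSeq table for GRCm38.p6, as windows of 250 bases before a start site. Cd4 and Cd8b1 were not among them. The windows were searched on both strands for the letters TGTGGT, a Runx motif, and AGGTGTGA, a T-box motif, which do not contain one another. The Runx letters occur in 14% of 32851 promoter windows of this length and the T-box letters in 1.12%. Among the 11 windows of these genes, the distal Runx3 window held the Runx letters at 2 places, the second Zbtb7b window at 1, and none held the T-box letters. The distal Runx3 window is shown for its paired matches, in capitals as read on the printed strand (ACCACA is the reverse complement of TGTGGT), and those of Cd8a and Eomes, which had the highest log2 fold changes of KO over WT in TIL (below), are shown beside it without a match. They lie at chr4:135120395-135120644, chr6:71373177-71373426 and chr9:118477939-118478188, all on the + strand. A match to letters is a description and not a binding site, and its absence speaks only for these windows.
Runx3: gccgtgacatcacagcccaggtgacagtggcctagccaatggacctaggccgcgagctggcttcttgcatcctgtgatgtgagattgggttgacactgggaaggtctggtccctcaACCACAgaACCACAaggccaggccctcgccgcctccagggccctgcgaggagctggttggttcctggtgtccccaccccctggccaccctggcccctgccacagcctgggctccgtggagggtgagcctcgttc
Cd8a: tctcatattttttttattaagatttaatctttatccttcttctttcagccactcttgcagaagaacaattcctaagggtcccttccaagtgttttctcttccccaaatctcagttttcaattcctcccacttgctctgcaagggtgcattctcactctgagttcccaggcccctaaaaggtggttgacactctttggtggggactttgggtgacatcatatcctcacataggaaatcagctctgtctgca
Eomes: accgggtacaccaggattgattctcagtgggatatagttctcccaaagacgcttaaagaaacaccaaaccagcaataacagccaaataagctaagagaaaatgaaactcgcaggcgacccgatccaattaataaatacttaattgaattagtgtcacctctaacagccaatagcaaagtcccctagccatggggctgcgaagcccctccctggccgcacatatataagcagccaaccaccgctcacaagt

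In the GRCm38 annotation all 10 are protein-coding genes measured over their exons. Cd8b1 (chr6:71322788-71337494, + strand) and Cd8a (chr6:71373427-71379173, + strand) are neighbours on chromosome 6, and Cd4 (chr6:124864692-124888221, - strand) lies on the same chromosome. Zbtb7b is at chr3:89377644-89394776 (- strand), Runx3 at chr4:135120652-135177990 (+ strand), Runx1 at chr16:92601466-92826149 (- strand), Tbx21 at chr11:97098071-97115331 (- strand) and Eomes at chr9:118478212-118486132 (+ strand). Cd3e is at chr9:44998740-45009627 (- strand) and Cd5 at chr19:10718143-10738974 (- strand). Short stretches of Zbtb7b, Runx1, Eomes and Cd3e, at 0.896% to 3.31% of their exon bases, overlap a gene on the opposite strand, and reads there cannot be assigned because the use of strand in counting is not stated.

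Levels are given as CPM, counts relative to the library total after TMM scaling in edgeR. Cd4 was at 807 and 1086 CPM in WT TIL, 1009 and 875 CPM in KO spleen, and 891 and 384 CPM in WT spleen. In KO TIL it was at 148 and 66.2 CPM. Both KO TIL libraries were therefore below the 6 others, among which the groups overlapped.

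Cd8a was highest where Cd4 was lowest. It was at 2.96 and 2.33 CPM in KO spleen, 5.21 and 5.96 CPM in WT spleen, 71.8 and 9.68 CPM in WT TIL, and 217 and 1213.5 CPM in KO TIL. No group overlapped its neighbour in this order, although the replicates within KO TIL and within WT TIL lay several-fold apart. The splenic values rest on 92 to 174 counts per library. Cd8b1 had the same order of groups without overlap, with 12.1 and 15.2 CPM in KO spleen, 19.1 and 24.7 CPM in WT spleen, 76.2 and 38.6 CPM in WT TIL, and 189 and 1007 CPM in KO TIL.

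**Figure D1:**
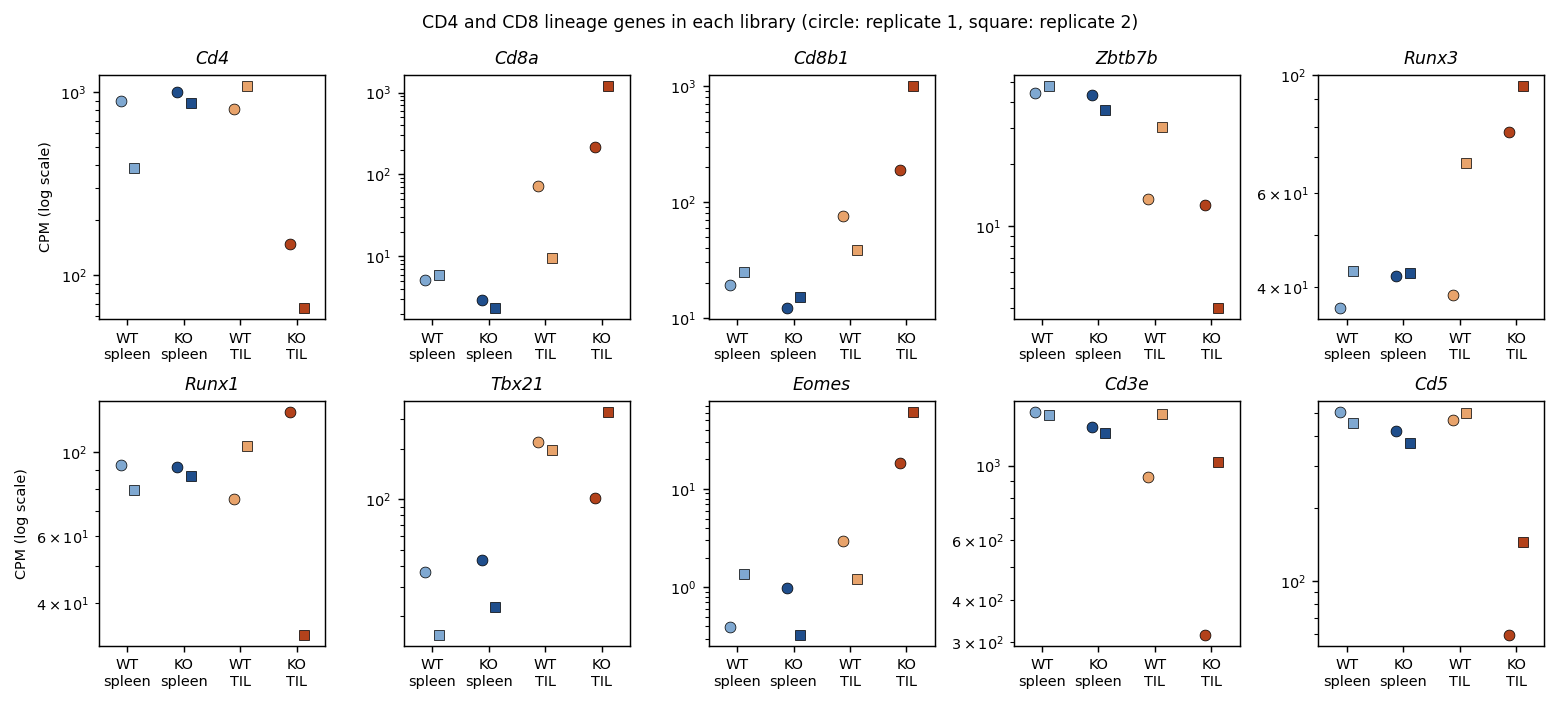
CPM on a log scale for the 10 genes in each of the 8 libraries, grouped as WT spleen, KO spleen, WT TIL and KO TIL, with a circle for replicate 1 and a square for replicate 2. Cd8a, Cd8b1 and Eomes are highest and Cd4, Zbtb7b and Cd5 include their lowest values in the KO TIL libraries, and the 2 KO TIL points are far apart for most genes.

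Ratios within a library do not depend on scaling between libraries, and were taken per kb of exon so that genes could be compared. The ratio of Cd8a to Cd4 was 0.00326 and 0.00295 in KO spleen, 0.00648 and 0.0172 in WT spleen, 0.0986 and 0.00989 in WT TIL, and 1.63 and 20.3 in KO TIL. Thus both KO TIL libraries, sorted as CD4+, held more Cd8a than Cd4 RNA per kb, and none of the other 6 did. The ratio in WT TIL replicate 2 lay within the splenic range. In bulk samples more cells of a type and more RNA per cell cannot be told apart, so this ratio does not say whether Cd4 and Cd8a RNA were in the same cells. With 2 libraries against 2, an exact permutation test of such a ratio cannot go below p = 0.333 (two-sided), and none is given.

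The 2 chains of CD8 kept different proportions across groups. Cd8b1 exceeded Cd8a per kb in every library, by 9.99 and 16.0 times in KO spleen and 8.99 and 10.2 times in WT spleen. In KO TIL the ratio was 2.13 and 2.03, nearly the same in libraries whose Cd8a levels differed several-fold. WT TIL replicate 1, the WT TIL library with more Cd8a, had a ratio of 2.60, and replicate 2, with less, had 9.77.

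The level of Cd4 relative to Cd3e per kb was 0.785 and 0.707 in KO spleen, 0.624 and 0.274 in WT spleen, and 0.881 and 0.770 in WT TIL. It was 0.474 and 0.0655 in KO TIL. KO TIL replicate 2 was thus below every other library, while replicate 1 lay within the WT splenic range with a low level of Cd3e as well.

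**Figure D2:**
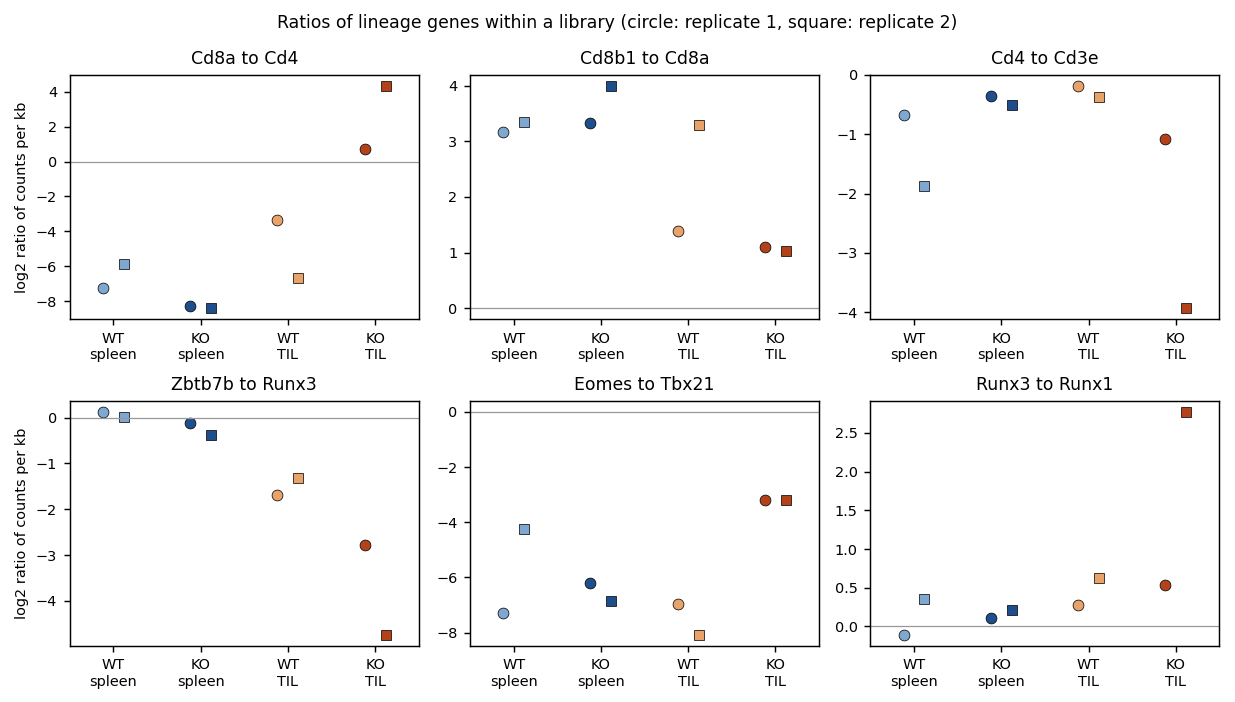
Log2 ratios of 6 gene pairs within each library, from counts per kb of exon, with a circle for replicate 1, a square for replicate 2 and a gray line at equal levels where it falls in the range. The Cd8a to Cd4 ratio lies above 0 in the KO TIL libraries only, and the Zbtb7b to Runx3 ratio is lowest there.

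For the comparison of KO with WT in TIL eTreg cells, edgeR's quasi-likelihood test was fitted to the 4 TIL libraries, and a gene was called when its Benjamini-Hochberg adjusted p was under 0.05 and its log2 fold change over 1 in size. None of the 10 genes was called, nor was any of the 15935 genes tested (0%). At an unadjusted p under 0.05, 3 of the 10 were higher in KO and 2 lower, against 6.34% and 3.53% of all genes. DESeq2's Wald test, the study's own test, called the same 5 on the same libraries, 3 higher and 2 lower, where it called 3.51% and 1.30% of all genes. The KO and WT libraries did not overlap for 7 of the 10, of which 4 were higher and 3 lower in KO, against 18.0% and 19.4% of all genes.

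The 5 genes were Cd4, Cd8a, Cd8b1, Eomes and Cd5. The log2 fold change of Cd4, KO over WT, was -3.15 (standard error 0.51, adjusted p = 0.201 in edgeR and 4.77e-06 in DESeq2). Cd8a had 4.14 (standard error 1.28, adjusted p = 0.393 in edgeR and 0.00303 in DESeq2), and Cd8b1 had 3.38 (standard error 0.89, adjusted p = 0.313 and 0.00202). Leaving out a single TIL library kept the direction of all 3, but not their size. Without KO TIL replicate 2 the log2 fold changes were -2.69 for Cd4, 2.41 for Cd8a and 1.71 for Cd8b1, and without replicate 1 they were -3.84, 4.90 and 4.13. DESeq2's call of Cd8a was lost without KO TIL replicate 1 (adjusted p = 0.161) and without replicate 2 (adjusted p = 0.115), with 1 KO library left whose spread is assumed to be that of the WT libraries. Without WT TIL replicate 2, DESeq2 called Cd4 (adjusted p = 0.0341) and Eomes (adjusted p = 0.0119) and no other of the 10.

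Zbtb7b, the CD4 lineage regulator, was at 44.4 and 48.2 CPM in WT spleen, 43.4 and 36.7 CPM in KO spleen, 13.5 and 30.5 CPM in WT TIL, and 12.6 and 4.0 CPM in KO TIL. The groups followed one another in this order without overlap, but KO TIL replicate 1 and WT TIL replicate 1 were close. In TIL its log2 fold change, KO over WT, was -1.41 (standard error 0.71, adjusted p = 0.623 in edgeR and 0.447 in DESeq2), and it did not pass either test. The value was -2.46 without KO TIL replicate 1, -0.81 without KO TIL replicate 2 and -0.70 without WT TIL replicate 2. DESeq2 called Zbtb7b in the first of these (adjusted p = 0.0145).

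Runx3, the CD8 lineage regulator, was at 36.4 and 42.8 CPM in WT spleen, 41.9 and 42.4 CPM in KO spleen, 38.7 and 68.3 CPM in WT TIL, and 78.0 and 95.5 CPM in KO TIL. Both KO TIL libraries were above all others, and the other groups overlapped. The log2 fold change in TIL, KO over WT, was 0.69 (standard error 0.38, adjusted p = 0.648 in edgeR and 0.727 in DESeq2). It was 0.83 without KO TIL replicate 1, 0.54 without KO TIL replicate 2, 0.32 without WT TIL replicate 1 and 1.16 without WT TIL replicate 2. Runx3 RNA was present in splenic eTreg cells at a level per kb close to that of Zbtb7b, with a ratio of Zbtb7b to Runx3 of 1.09 and 1.01 in WT and 0.926 and 0.774 in KO spleen. The ratio was 0.312 and 0.400 in WT TIL and 0.145 and 0.0375 in KO TIL. It was below every splenic library in all 4 TIL libraries, and the KO TIL libraries were both below the WT ones.

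Runx1 did not follow the tissues or the genotypes. Its lowest and highest values were both in KO TIL, at 128 CPM in replicate 1 and 33.0 CPM in replicate 2, and the other 6 libraries lay between 75.3 and 104 CPM. Its log2 fold change in TIL, KO over WT, was -0.16 (standard error 0.65, adjusted p = 0.980 in edgeR), and it was -1.44 without KO TIL replicate 1 and 0.50 without replicate 2. Runx3 to Runx1 per kb was 1.44 in KO TIL replicate 1 and 6.83 in replicate 2, against 0.930 to 1.55 in the other libraries.

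The T-box factors differed from one another. Eomes was near the limit of detection in spleen, at 0.988 and 0.329 CPM in KO spleen and at 0.389 and 1.36 CPM in WT spleen, where 3 counts correspond to 0.0683 to 0.106 CPM. It was at 2.94 and 1.21 CPM in WT TIL and at 18.4 and 60.9 CPM in KO TIL. Both KO TIL libraries were above all others, and each of the remaining groups overlapped its neighbour in order. The log2 fold change in TIL, KO over WT, was 4.25 (standard error 0.82, adjusted p = 0.228 in edgeR and 5.12e-06 in DESeq2), and it was 3.14 without KO TIL replicate 2 and 4.87 without replicate 1. DESeq2 called Eomes whichever TIL library was left out. The longest transcript of Eomes has a stretch of 200 nt with 81% GC, and the 727 tested genes with such a stretch of 80% to 85% were higher in KO by a median of 1.04 on the log2 scale, against 0.043 for all genes tested. The part of GC content in the value for Eomes was not tested.

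Tbx21 was at 36.5 and 15.5 CPM in WT spleen and 43.5 and 22.8 CPM in KO spleen. It was at 219.5 and 195.5 CPM in WT TIL and 101 and 331 CPM in KO TIL. Every TIL library was above every splenic one, and the genotypes overlapped in both tissues. Between KO and WT TIL its log2 fold change was 0.057 (standard error 0.58, adjusted p = 0.993 in edgeR), against 0.67 without KO TIL replicate 1 and -1.04 without replicate 2. Eomes relative to Tbx21 per kb was 0.109 and 0.110 in KO TIL and 0.00803 and 0.00372 in WT TIL. The 2 KO TIL libraries thus had nearly the same ratio although both genes were several-fold higher in replicate 2. In spleen the ratio was 0.0136 and 0.00865 in KO and 0.00638 and 0.0522 in WT, on few Eomes counts (13 to 46 in KO).

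Cd3e, which was gated on as a protein in every library, was at 1444 and 1416 CPM in WT spleen, 1300.4 and 1252 CPM in KO spleen, and 927 and 1426 CPM in WT TIL. In KO TIL it was at 315 CPM in replicate 1 and 1022 CPM in replicate 2, so that replicate 1 was the lowest of all libraries and replicate 2 lay within the WT TIL range. The log2 fold change in TIL, KO over WT, was -0.82 (standard error 0.62, adjusted p = 0.792 in edgeR and 0.852 in DESeq2). It was -0.20 without KO TIL replicate 1 and -1.91 without replicate 2, where DESeq2 called it (adjusted p = 0.00516). Cd5 was at 373 to 503 CPM in the 4 splenic libraries and at 467 and 496 CPM in WT TIL. It was at 59.9 and 145 CPM in KO TIL, below all others, with a log2 fold change in TIL of -2.24 (standard error 0.50, adjusted p = 0.264 in edgeR and 0.00370 in DESeq2). The value was -1.74 without KO TIL replicate 1 and -3.01 without replicate 2. DESeq2's call of Cd5 was lost when either WT TIL library was left out.

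These values are relative to all genes of a library. The other 20 genes of the T cell receptor complex and pan-T list, such as Trac and Lck, had a median of -0.74 on the log2 scale in this comparison, against 0.043 for all genes. None was called by edgeR, 3 were lower and none higher at an unadjusted p under 0.05 (3.53% and 6.34% of all genes), and DESeq2 called Cd2 (-2.20, adjusted p = 0.00503) and Trat1 (-1.72, adjusted p = 0.00896). Thy1 (0.48) and Sh2d1a (0.064) were the only members with a positive value. Trac, the constant region of the T cell receptor α chain, was at 292 and 948 CPM in KO TIL and 1271 and 1660.5 CPM in WT TIL. Scaling the libraries to this list moved the median of all genes by 1.15 on the log2 scale. edgeR then called Cd8a at 4.58 (adjusted p = 0.0137), Cd8b1 at 3.91 (adjusted p = 0.0335) and Eomes at 4.91 (adjusted p = 0.0129). On that scale the log2 fold change of Cd4 was -1.72 (adjusted p = 0.476) and that of Cd5 -1.39 (adjusted p = 0.561), neither past the threshold, and those of Zbtb7b (0.13) and Runx1 (1.38) had the other sign.

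**Figure D3:**
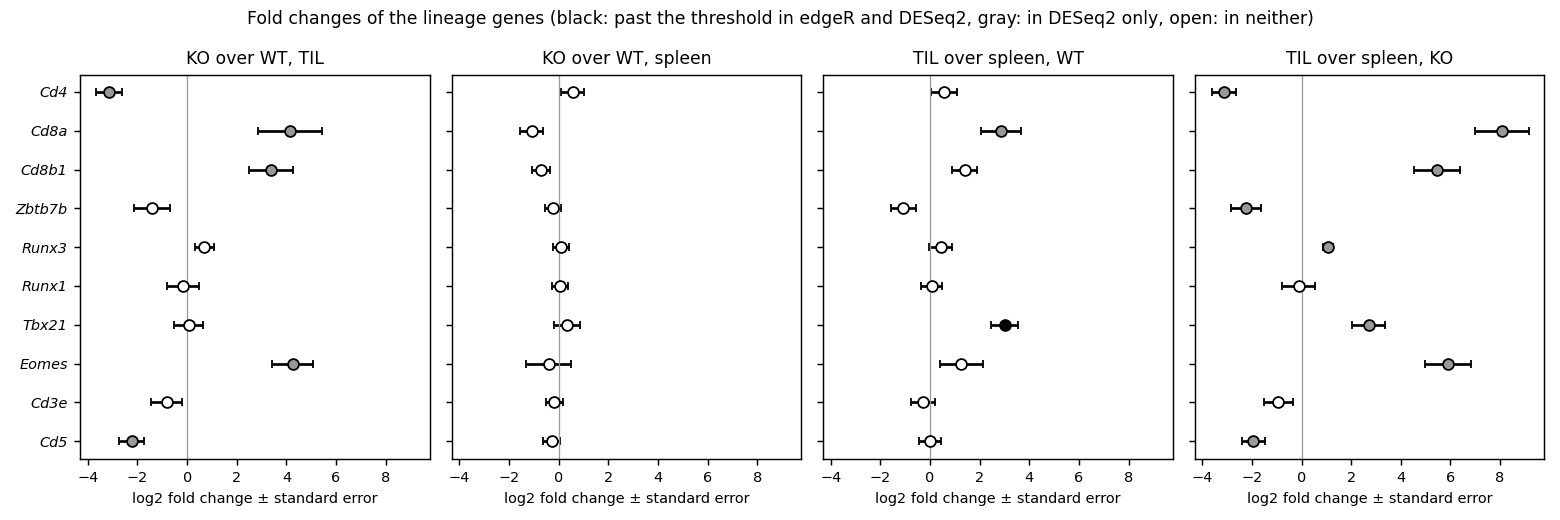
Log2 fold changes of the 10 genes in 4 comparisons, with bars of 1 standard error from edgeR. Black points passed the threshold in edgeR and DESeq2 (Tbx21, TIL over spleen in WT), gray points in DESeq2 only, and open points in neither.

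In splenic eTreg cells none of the 10 genes was called by edgeR (0% of 16583 genes) or by DESeq2 (0.446%), and none had an unadjusted p under 0.05 in edgeR, where 2.95% of all genes did. Cd8a, Cd8b1, Zbtb7b, Cd3e and Cd5 were lower in both KO than in both WT libraries, against 15.7% of all genes, and none was higher without overlap, against 16.4%. Their log2 fold changes, KO over WT, were -1.08 (standard error 0.46) for Cd8a, -0.69 (standard error 0.36) for Cd8b1, -0.22 for Zbtb7b, -0.17 for Cd3e and -0.28 for Cd5. Cd8a and Cd8b1 had an adjusted p of 0.878 in edgeR. For Cd4 the value was 0.56 (standard error 0.47) with overlap, since WT replicate 2 was low at 384 CPM. Without WT splenic replicate 1 that library alone stood for WT, and edgeR called Cd4 at 1.25 (adjusted p = 0.00207) among 3831 genes.

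The effect of genotype was compared between the tissues by an interaction term over all 8 libraries. The KO over WT log2 fold change was larger in TIL than in spleen by 5.21 (standard error 1.38) for Cd8a, 4.07 (standard error 0.99) for Cd8b1 and 4.63 (standard error 1.23) for Eomes. The same difference was -3.71 (standard error 0.74) for Cd4 and -1.96 (standard error 0.60) for Cd5. None of these passed in edgeR (adjusted p = 0.234 for Cd4, 0.344 for Cd8a, 0.293 for Cd8b1, 0.346 for Eomes and 0.435 for Cd5), as none of 17870 genes did (0%). DESeq2 called 4 of the 10, where it called 2.24% of the 14405 genes to which it gave an adjusted p. The 4 were Cd4 (adjusted p = 4.97e-04), Cd8a (0.00218), Cd8b1 (0.00292) and Eomes (0.00561). The interactions of the other 5 lay between -1.19 for Zbtb7b and 0.61 for Runx3.

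Between tissues within WT, Tbx21 was the only one of the 10 that edgeR called, where it called 4.10% of all genes as higher in TIL. It rose by 3.0 on the log2 scale (standard error 0.53, adjusted p = 0.00967 in edgeR and 6.82e-07 in DESeq2). Cd8a had a log2 fold change, TIL over spleen, of 2.87 (standard error 0.80, adjusted p = 0.0657) and was called by DESeq2 (adjusted p = 0.00168), which called 2 of the 10 and 6.90% of all genes as higher. This value leaned on WT TIL replicate 1, since it was 3.69 without replicate 2 and 0.79 without replicate 1. Cd8b1 was at 1.39 (standard error 0.49) and Zbtb7b at -1.07 (standard error 0.50), without overlap and with no call by either test. The log2 fold changes of Cd4 (0.58), Runx3 (0.43), Runx1 (0.062), Eomes (1.25), Cd3e (-0.28) and Cd5 (0.010) came from overlapping libraries. In all, 3 of the 10 were higher in TIL without overlap and 1 lower, against 25.1% and 27.0% of all genes.

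Between tissues within KO, edgeR called none of the 10, against 1.35% of 16933 genes, with 5 higher and 3 lower in TIL at an unadjusted p under 0.05, where 17.4% and 13.7% of all genes were. DESeq2 called the same 8, where it called 14.1% of all genes as higher and 7.87% as lower. The libraries did not overlap for these 8 and for Cd3e, 5 higher and 4 lower, against 30.6% and 32.9% of all genes. Those higher in TIL were Cd8a (8.07, standard error 1.07, adjusted p = 0.0514 in edgeR), Eomes (5.90, standard error 0.92, adjusted p = 0.0571), Cd8b1 (5.45, standard error 0.93, adjusted p = 0.0590), Tbx21 (2.71, standard error 0.67, adjusted p = 0.0800) and Runx3 (1.05, standard error 0.20, adjusted p = 0.0644). Those lower were Cd4 (-3.11, standard error 0.49, adjusted p = 0.0571), Zbtb7b (-2.23, standard error 0.62, adjusted p = 0.0953) and Cd5 (-1.95, standard error 0.46, adjusted p = 0.0745). With a KO TIL library left out Runx1 had opposite signs, at -1.44 without replicate 1 and 0.57 without replicate 2. The comparisons share libraries. The KO TIL libraries enter both this one and KO over WT in TIL, so that their values are not independent of one another.

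Among 30 other genes that take part in the CD4 and CD8 choice or act with its regulators, none was called by edgeR between KO and WT TIL. At an unadjusted p under 0.05, 4 were higher and 2 lower in KO, against 6.34% and 3.53% of all genes, and the median log2 fold change was -0.11. Gata3, which acts upstream of Zbtb7b in CD4 cells, was at 35.9 and 69.0 CPM in KO TIL against 213 and 477 CPM in WT TIL (log2 fold change -2.72, standard error 0.56, adjusted p = 0.252 in edgeR and 7.46e-04 in DESeq2). Tcf7, which encodes TCF-1, was at 55.02 and 66.3 CPM in KO TIL against 9.37 and 19.7 CPM in WT TIL (2.05, standard error 0.45, adjusted p = 0.264 in edgeR and 0.00677 in DESeq2). Satb1, a chromatin organizer of T cells, had 1.55 (standard error 0.37, adjusted p = 0.0300 in DESeq2), and Stat5a, which carries IL-2 signals, had -0.998 (standard error 0.30). Cbfb, the shared partner of the Runx proteins, was at 165 and 278 CPM in KO TIL against 190 and 124 CPM in WT TIL, which overlapped. Between tissues in WT, edgeR called 2 of the 30 as higher and 2 as lower in TIL, against 4.10% and 1.87% of all genes. Runx2 (1.98, adjusted p = 0.0266) and Zeb2 (2.54, adjusted p = 0.0419) rose in TIL, and Tcf7 (-4.07, adjusted p = 0.00305) and Id3 (-4.80, adjusted p = 0.00489) fell. Zeb2 was at 52.6 and 15.6 CPM in WT TIL, where macrophage markers (below) summed to 3448 and 568.5 CPM. The part of macrophage RNA in the value of Zeb2 was not tested. In KO edgeR called Tcf7 (-2.47, adjusted p = 0.0374) and Tox2 (-3.57, adjusted p = 0.0431), both lower in TIL, where it called 0.543% of all genes as lower.

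Of 22 further genes of CD8 effector cells, 21 were tested between KO and WT TIL, with a median log2 fold change of 2.24 against 0.043 for all genes. None was called by edgeR, 10 were higher and none lower at an unadjusted p under 0.05, DESeq2 called 10 as higher, and 14 were higher in KO without overlap. Over all genes these shares were 6.34% at the unadjusted p, 3.51% by DESeq2 and 18.0% without overlap. The paper places Klrk1, Klrc2, Crtam, Ifng and genes for granzymes, which are on this list, in an NK cell cytotoxic program. The list therefore does not mark CD8 T cells alone. Gzma, a granzyme, was at 119 and 335.5 CPM in KO TIL against 15.5 and 2.83 CPM in WT TIL (log2 fold change 4.63, standard error 1.02, adjusted p = 0.263 in edgeR). Klrc2, which encodes an activating NKG2 receptor, had 3.74 (standard error 0.77, adjusted p = 0.252), whereas Hcst (-0.45) and Cst7 (-0.049) overlapped. The summed level of the 22 was 3228 and 11887 CPM in KO TIL against 4045.5 and 3079 CPM in WT TIL. Only KO TIL replicate 2 was thus above the WT TIL libraries. Some of the cytotoxic genes did not separate the genotypes. Nkg7 was at 587 and 3275 CPM in KO TIL against 1544 and 1129 CPM in WT TIL, and Prf1, which encodes perforin, at 241 and 1307 CPM in KO TIL against 244 and 42.0 CPM in WT TIL.

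The 16 genes of helper CD4 cells had a median of -0.91 in the same comparison, with 7 lower and none higher at an unadjusted p under 0.05 and 7 called as lower by DESeq2, against 3.53% and 1.30% of all genes. Ccr8 (-3.70, standard error 0.37) and Tnfrsf4 (-2.98, standard error 0.41) had the smallest p among them, and Il21 (0.99) and Bcl6 (0.55) the smallest among those higher. The 12 Treg identity genes, of which Ctla4 and Tnfrsf18 are also on the helper list, had a median of -2.79, with 11 lower at an unadjusted p under 0.05 (3.53% of all genes) and 10 called as lower by DESeq2 (1.30%). Izumo1r, which encodes folate receptor 4, was at 11.0 and 11.3 CPM in KO TIL against 232 and 376 CPM in WT TIL (log2 fold change -4.78, standard error 0.40, adjusted p = 0.177 in edgeR). Ikzf4 had -3.03 (standard error 0.31). The summed level of the 12 was 1115 and 1575 CPM in KO TIL, below the 3021 to 4228 CPM of the splenic libraries. The study singled out several genes of these lists, such as Foxp3, Ctla4, Klrk1 and Crtam, from the same libraries, so the counts are not independent evidence of a direction.

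Cd8a, Cd8b1 and Eomes are also expressed by cells other than CD8 T cells, and markers of such cells, which the gate on CD3, CD4 and YFP is meant to remove, were examined in the same libraries. Of 11 NK cell genes, 6 were called as higher in KO TIL by DESeq2, against 3.51% of all genes, and none by edgeR, and their summed level was 1954 and 4667 CPM in KO TIL and 2323 and 1204.5 CPM in WT TIL. Klri2 (log2 fold change 4.05) and Klra4 (5.80) had the smallest p among those higher in KO, and Itga2 (-1.69) among those lower. In all 4 TIL libraries most of the sum came from Gzmb, Tyrobp and Fcgr3, which other cells also express. Ncr1, which defines NK cells, was at 13.4 and 1.53 CPM in KO TIL against 0.646 and 0.843 CPM in WT TIL. Klrb1c, Klra8, Klra4, Tyrobp, Fcgr3 and Itga2 were likewise lower in KO TIL replicate 2 than in replicate 1. Klre1 (22.1 and 90.3 CPM), Klri2 (23.3 and 35.6 CPM), Klra9 (2.16 and 3.59 CPM) and Gzmb (456 and 4287 CPM) were higher in replicate 2. Ncr1, Klra8 and Klra4 were at 0 in every splenic library. The γδ T cell genes gave sums of 42.3 and 204 CPM in KO TIL against 9.16 and 5.13 CPM in WT TIL, of which Tcrg-C2 (log2 fold change 4.90) made up most in KO. Tcrg-C4 had 4.15, and DESeq2 called 3 of the 4 tested as higher, against 3.51% of all genes. Trdc, the δ chain constant region that defines γδ T cells, was at 3.87 and 2.65 CPM in KO TIL against 2.19 and 2.70 CPM in WT TIL, which is below its splenic range of 3.57 to 4.89 CPM in 3 of the 4 libraries.

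Cd8a is carried by type 1 dendritic cells, which lack Cd8b1 and Cd3e. The 8 genes of these cells summed to 613 and 453 CPM in KO TIL against 364 and 248 CPM in WT TIL. Of the 8, 4 were higher in KO without overlap and 1 lower, against 18.0% and 19.4% of all genes. Xcr1, which defines these cells, was at 19.4 and 15.1 CPM in KO TIL against 19.6 and 15.7 CPM in WT TIL. Clec9a was at 6.31 and 1.57 CPM in KO TIL against 1.47 and 0 CPM in WT TIL. Batf3 was at 8.66 and 2.24 CPM in KO TIL against 1.76 and 0.44 CPM in WT TIL. Flt3 (log2 fold change 1.76) and Irf8 (0.83) had the smallest p among those higher in KO, and Zbtb46 (-0.50) and Xcr1 (-0.036) among those lower. The plasmacytoid dendritic cell genes summed to 240 and 205 CPM in KO TIL against 199 and 258 CPM in WT TIL, with Spib at 1.71, Tcf4 at 1.52 and Bst2 at -0.41 on the log2 fold scale. DESeq2 called no gene of either list. Macrophage genes summed to 16409 and 1940 CPM in KO TIL against 3448 and 568.5 CPM in WT TIL, so that the KO TIL library with the lower Cd3e had the higher macrophage sum. All 10 macrophage genes overlapped between KO and WT TIL and none was called by DESeq2, with log2 fold changes of 3.02 for Csf1r and 2.76 for Cd14. Neutrophil genes summed to 383 and 200.2 CPM in KO TIL against 68.4 and 5.26 CPM in WT TIL. Retnlg had a log2 fold change of 4.04, S100a8 of 2.88 and Ly6g of -0.12, and DESeq2 called 2 of 6 as higher in KO, against 3.51% of all genes. B cell genes summed to 49.9 and 14.8 CPM in KO TIL against 16.8 and 27.1 CPM in WT TIL, where Ms4a1 and Pax5 were at 0 in replicate 2. DESeq2 did not call Ms4a1 (log2 fold change 3.52), Cd79b (-0.61) or Blk (-0.053). Fibroblast genes summed to 0.561 to 16.1 CPM in TIL, with Col1a1 at -2.90 and Col3a1 at -3.86 on the log2 fold scale. DESeq2 called both as lower in KO TIL (adjusted p = 0.0437 and 0.0302), 2 of the 3 tested, against 1.30% of all genes. Melanoma genes summed to 3199 and 830 CPM in KO TIL against 2077 and 1139 CPM in WT TIL, against 3.69 to 6.74 CPM in spleen, with Tyr and Slc45a2 at 0 in every splenic library, and overlapped between the genotypes (Pmel 0.47, Dct 0.44). edgeR called no gene of these lists between KO and WT TIL. The part of these cells in the values of the lineage genes was not tested.

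**Figure D4:**
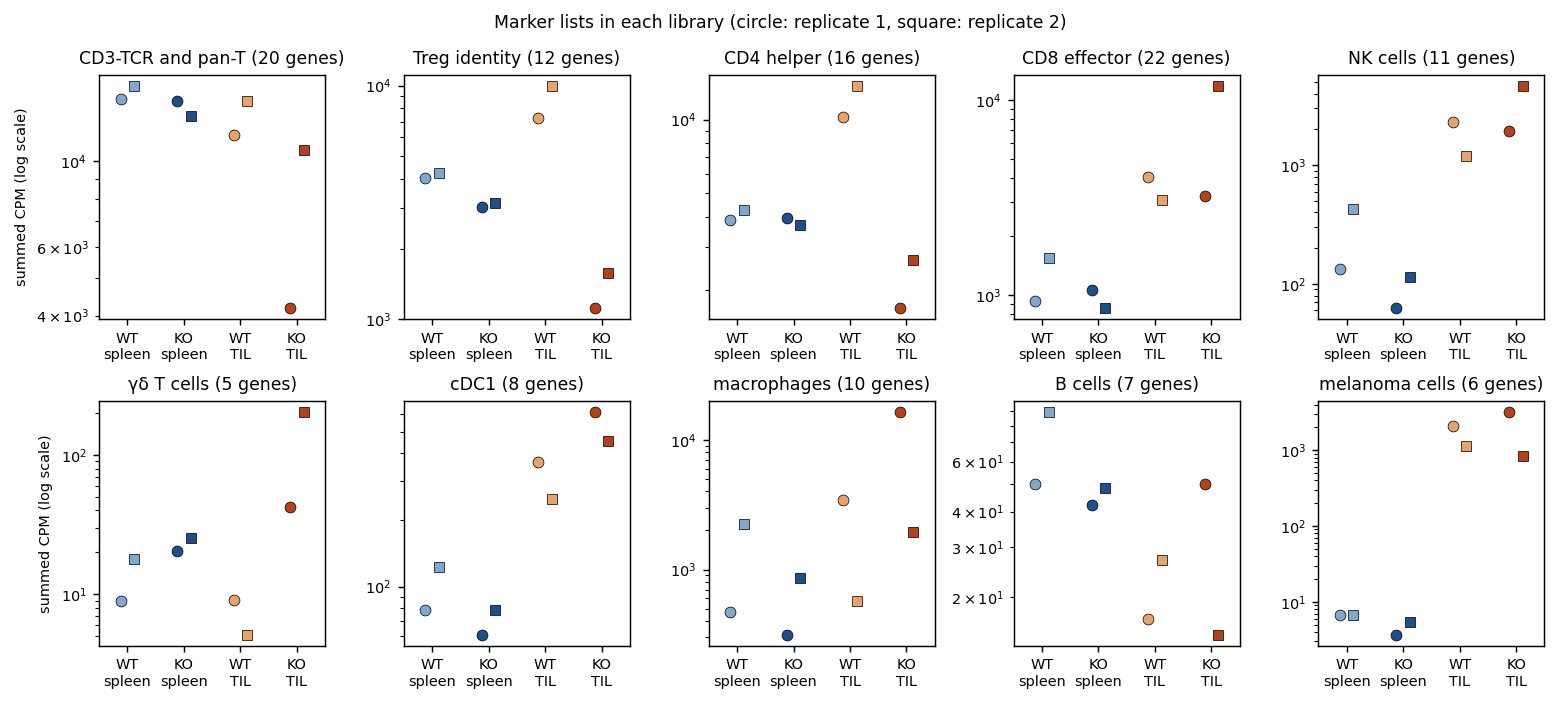
Summed CPM on a log scale of 10 marker lists in each library, with a circle for replicate 1 and a square for replicate 2. The Treg identity and CD4 helper sums are lowest in the KO TIL libraries, and the macrophage sum is highest in KO TIL replicate 1. The CD8 effector sum is highest in KO TIL replicate 2, while that of KO TIL replicate 1 lies between the WT TIL values.

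Across the 8 libraries, after the mean of each tissue was subtracted from log2 CPM, the genes most like each lineage gene were ranked among 17870 by Pearson's r. Such high values arise easily among many genes in 8 libraries, of which the KO TIL libraries lie farthest out, and are given as a description. For Cd4 they were Angptl2 (0.990), Elmo3 (0.989) and Cd99l2 (0.988). Cd8a was most like Rras2 (0.993), Zcwpw1 (0.985) and Set (0.984), and Cd8b1 was most like Gm16602 (0.990), Rras2 (0.986) and Nudt11 (0.985), so that Rras2 was near both chains. Eomes was most like Pds5a (0.992), Adgrg5 (0.990) and Cenpv (0.990). For Zbtb7b they were Zfp467 (0.988), Tiam1 (0.988) and Rtfdc1 (0.982), for Runx3 Gm5111 (0.975), Cpsf7 (0.974) and Pdgfb (0.954), and for Runx1 Phyhd1 (0.986), Wdsub1 (0.986) and RP23-176M22.7 (0.984). For Tbx21 they were Apex2 (0.990), Rexo4 (0.984) and Hibch (0.982). Cd3e was most like Trav9-4 (0.994), Suox (0.990) and Muc4 (0.987), and Cd5 most like Vgll4 (0.990), Trav17 (0.988) and Calca (0.988). Cd3e and Cd5 each had a T cell receptor α chain segment among their nearest 3. Among the lineage genes themselves, Cd8a went with Cd8b1 (0.96) and Eomes (0.94), and Cd4 went against Eomes (-0.97), Cd8b1 (-0.95) and Cd8a (-0.92). Zbtb7b went against Cd8a (-0.92), whereas Tbx21 and Cd8a were weakly related (0.15).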

How the data were processed

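RNA was extracted from the sorted CD44+ Treg cells and sequenced as paired reads. According to the methods and the processing notes, reads were trimmed with Trimmomatic 0.36, aligned to GRCm38 with STAR 2.5.2b and counted over exons, unique reads only, with featureCounts of Subread 1.5.2. The authors deposited these raw counts per gene for each library, and they were used as deposited. A table of normalized counts was not used. The members and the marker lists were chosen with earlier results of these data known, so no p over a list alone is given.

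Tests used R 4.3.3. Each comparison was fitted on its 4 libraries (8 for the interaction) with edgeR 4.0.16 (TMM scaling, filterByExpr, quasi-likelihood F test, Benjamini-Hochberg adjustment over all genes tested), and the standard error is the log2 fold change divided by the square root of F. DESeq2 1.42.0 was run on the same filtered genes. The other alternatives were DESeq2's size factors, scaling to the pan-T list, no filter, the replicate number as a block, a fit on all 8 libraries, and leaving out each library. Crossed replicate numbers and DESeq2 with each TIL library left out were added after the data had been seen. Levels per kb were divided by the exon length that the authors deposited with the counts of each gene. Transcripts for GC content were those of GENCODE. Likeness used log2 of CPM plus 0.5. A total of 3 counts was taken as the floor, which covers counting error only. Scripts were tested on simulated data. Counts of replicates differed beyond counting error, with a chi-square of 37.2 to 344 for each degree of freedom.

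Genes named are the 10 members, Prdm1, from each list the 2 in each direction with the smallest unadjusted p between KO and WT TIL, and the 3 most like each member. Foxp3, Trac, Cbfb, Nkg7, Prf1, Ncr1, Trdc, Xcr1, Gzmb, genes called between tissues, and genes at 0 were chosen after their values were seen. So were Klrb1c, Klre1, Klra9, Tyrobp, Fcgr3, Clec9a and Batf3. One gene that this rule names is not reported here.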

Additional observations from a re-analysis of the deposited data

Results flagged for a closer look

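Cd8a and Cd8b1 differed between genotypes in opposite directions in the 2 tissues, in every library. Both KO TIL libraries were above both WT TIL libraries, and both KO splenic libraries were below both WT splenic libraries. Over all genes, 18.0% were higher in KO TIL and 15.7% lower in KO spleen without overlap. The share of genes with both was not counted. In spleen neither gene passed in edgeR (adjusted p = 0.878 for both), and Cd8a there rests on 92 to 174 counts per library. The difference between the log2 fold changes was 5.21 for Cd8a and 4.07 for Cd8b1. edgeR's interaction test did not pass for either (adjusted p = 0.344 and 0.293), and DESeq2's did (adjusted p = 0.00218 and 0.00292). With each library left out in turn the interaction kept its sign, at 3.52 to 7.28 for Cd8a and 2.44 to 4.82 for Cd8b1. No group had the 4 or more libraries that a test for a library far from the others needs.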

How the results depend on the processing

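Of 580 log2 fold changes of the lineage genes recomputed under the alternatives, 545 kept their direction, 35 reversed, 100 passed the threshold only in the alternative and 0 lost it. Only Tbx21 between tissues in WT passed it as reported, so few of these values could lose it. The number of lineage genes called moved as follows. Between KO and WT TIL it was 0 as reported, 5 with DESeq2 and with no filter, 3 with the pan-T scaling, 3 with the replicate block and 1 on 8 libraries (Cd4, adjusted p = 0.0486). edgeR called 0 with any TIL library left out, and DESeq2 2 to 5, where the lone library of a group is assumed to vary like the other group. Over all genes, that comparison gave 752 genes with DESeq2, 1072 with no filter, 590 with the pan-T scaling, 728 with the block and 135 on 8 libraries. Between KO and WT spleen the number was 0, and 0 to 1 with a library left out. Between tissues in WT it was 1, and 2 with the pan-T scaling, DESeq2, no filter and the replicate block. DESeq2 called 6.90% of all genes as higher in TIL there. Between tissues in KO it was 0, and 4 with the pan-T scaling, 8 with DESeq2 and with no filter, 7 on 8 libraries, 8 with the crossed replicate block, and 0 to 9 with a library left out. The interaction gave 0, 4 with DESeq2 (2.24% of 14405 genes) and 5 with no filter. Counts with a library left out, and outside KO against WT in TIL those of settings besides DESeq2, are not set here against all genes. Those counts cannot be read as particular to the lineage genes. The cause of these differences was not tested.

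Replicate numbers are shared by all groups, but the labels do not say what a number marks, and the deviations of same-numbered libraries correlated at 0.30 between KO and WT TIL, 0.21 in spleen, -0.016 between tissues in WT and -0.27 in KO, over 2 pairs each. With the replicate block the TIL calls were Eomes, higher, and Cd4 and Cd5, lower, and Tbx21 reversed to -0.18.

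The pan-T scaling reversed Zbtb7b (0.13) and Runx1 (1.38) between KO and WT TIL, Cd3e between tissues in WT (0.059), Runx1 (1.69) and Cd3e (0.13) between tissues in KO, and in the interaction Zbtb7b (0.29), Runx1 (1.28), Tbx21 (0.42) and Cd3e (0.072). It moved the median of all genes by 0.059 to 1.45, and DESeq2's size factors by at most 0.036. With a library left out, values near 0 changed sign. Between KO and WT TIL, Runx1 ranged from -1.44 to 0.50 and Tbx21 from -1.04 to 0.67, and DESeq2 gave them 0.51 and -1.03 without KO TIL replicate 2 and 0.093 and -0.028 without WT TIL replicate 2. In spleen, Tbx21 ranged from -0.19 to 1.05, Eomes from -1.39 to 0.76, Runx3 from -0.062 to 0.21 and Runx1 from -0.057 to 0.12. Between tissues, Runx1 (-0.18 to 0.27), Cd5 (-0.024 to 0.069) and Runx3 (-0.025 to 0.78) did so in WT, and Runx1 (-1.44 to 0.57) in KO. In the interaction, Tbx21 ranged from -1.37 to 0.33 and Runx1 from -1.49 to 0.49. Depth limits Eomes and Cd8a in spleen, which rest on few counts.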
